A study of Mus musculus with 2 samples.

Results

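The genes described here carry an interferon signal from the cell surface to the nucleus: the receptor chains *Ifnar1* and *Ifnar2*, the transcription factors *Stat2*, *Irf9*, *Irf1*, *Irf2*, *Irf3* and *Irf7*, and the feedback inhibitor *Socs1*. They were chosen by name, as every transcript probe that the array design assigns to one of these 9 genes, which gave 19 of the 56605 probes on the array. Expression was measured in primary hepatocytes of mice on a C57BL/6 background, on 1 array per genotype. *Drp1*LiKO mice carry floxed *Drp1* alleles (*Drp1* flox/flox) together with 1 copy of an albumin-Cre transgene, whose promoter is active in hepatocytes, so *Drp1* is deleted in these cells and not by design in other liver cells. Control mice were *Drp1* flox/flox littermates without Cre, which the labels call wild type. The ages of these mice and the number of mice behind each array are not given in the sources used here. The cells were isolated by collagenase perfusion and low-speed centrifugation, seeded on collagen-coated plates and harvested 24 h after seeding, so both groups had been taken out of the liver and cultured.

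Type I interferons bind a receptor made of IFNAR1 and IFNAR2. The kinases TYK2 and JAK1 on this receptor then phosphorylate STAT proteins, and STAT2 joins with another STAT and with IRF9 in a complex, ISGF3, that binds the interferon-stimulated response element in the promoters of antiviral genes. IRF3 and IRF7 act upstream, where they are activated by sensors of viral or misplaced nucleic acids and switch on the interferon genes. IRF1 activates and IRF2 often represses genes with similar elements. *Stat2*, *Irf9*, *Irf7*, *Irf1* and *Socs1* are themselves known to be induced by interferons, whereas *Irf3* is known as a gene expressed at a steady level in most tissues.

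Among these genes, *Irf7* and *Stat2* were higher in *Drp1*LiKO cells, by 3.92-fold and 2.55-fold, and *Irf9* had a 1.99-fold higher signal that did not reach the threshold. Both receptor chains, *Irf1*, *Irf2*, *Irf3* and *Socs1* lay nearer to 0, with log2 ratios from -0.56 for *Irf2* to 0.58 for *Ifnar1*. Since each genotype had 1 array, nothing could be tested, and all differences are descriptions of these 2 arrays. A difference is given as the log2 ratio, *Drp1*LiKO minus control, of signals scaled to the 75th percentile of each array. Signals are printed before this scaling, so a ratio taken from printed signals differs from the one beside them. A difference was called with a Z score of at least 2 in size over all 30275 detected probes. The study used the same value of 2, but its calls and those made here can differ, as for *Nlrc5* below. The threshold corresponded here to a log2 ratio of 1.30 for higher or -1.31 for lower expression. By this rule and by the brightest probe of each gene, 2 of the 9 genes were higher and 0 were lower, where 3.5% of all 20165 detected genes were higher and 2.81% were lower. By probe, 3 of 18 detected probes were higher and 0 were lower, against 2.94% and 2.49% of all detected probes. A log2 ratio above 0 was found in 7 of the 9 genes, compared with 44.5% of all genes, and the median was 0.12, compared with -0.05 over all genes. The only error that could be measured was the noise between spots. It was taken from the 296 transcript probes that are printed 10 times on each array, at a matching signal, and came to an SD of 0.060 to 0.31 for the log2 ratio of a single member probe. The ratios of 8 of the 18 detected probes lay within 2 such SDs of 0. This noise does not include the spread between animals or cultures.

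**Figure D1:**
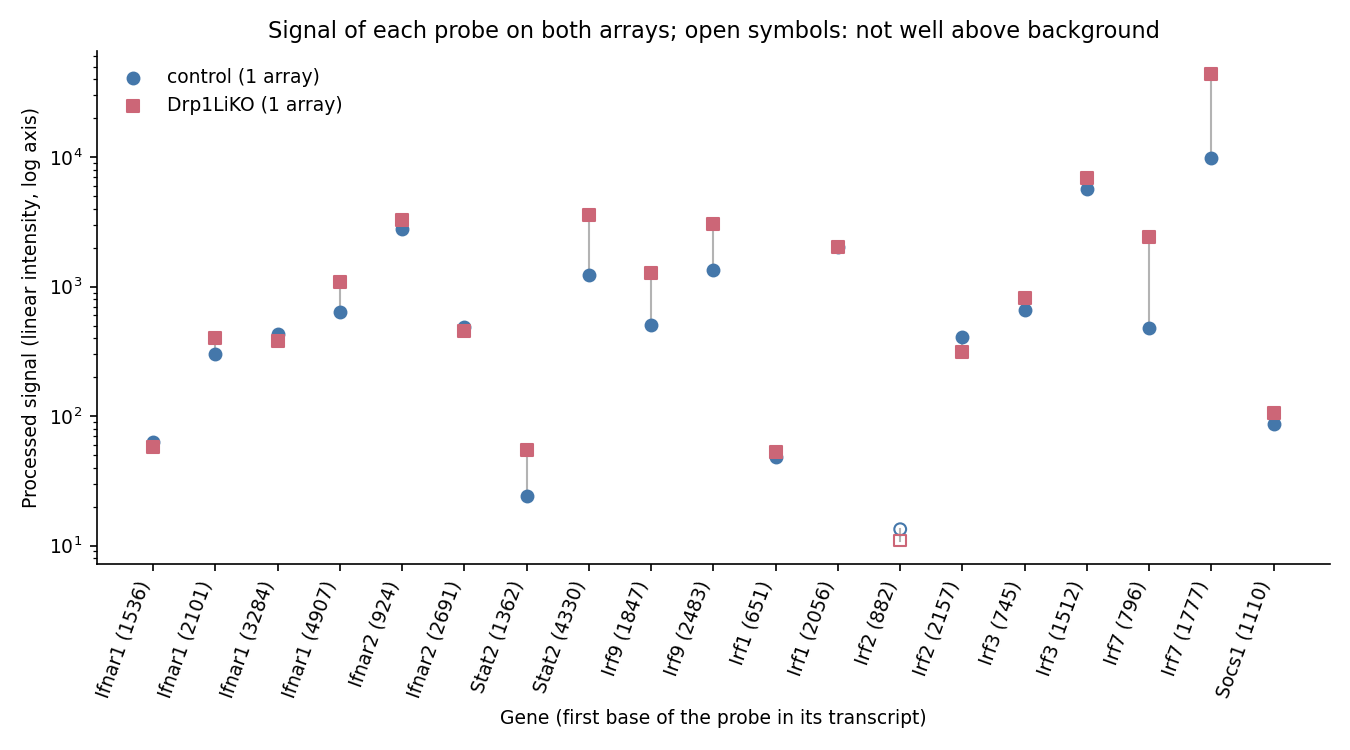
Processed signal (linear intensity on a log axis) of all 19 probes of the 9 genes on the control array (blue circles) and the *Drp1*LiKO array (red squares), with the first base of each probe in its transcript in parentheses and open symbols for signals not well above background. The widest gaps are those of both *Irf7* probes and of the brighter *Stat2* probe, whereas the symbols of *Irf1* (2056) lie on each other.

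The targeted gene was checked first. The brightest probe of *Dnm1l*, which encodes DRP1, gave a signal of 2602 on the control array and 1217 on the *Drp1*LiKO array. After scaling, the log2 ratio was -1.28, or 2.43-fold lower, with a Z score of -1.95. The other probe lay near background, at 22.8 and 20.9. The place of these probes relative to the deleted part of the gene is not given in the sources used here, and the remaining signal was not assigned to hepatocytes or other cells.

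*Ifnar1* and *Ifnar2*, the chains of the type I interferon receptor, were detected by every one of their probes on both arrays and were not called in either direction. The 4 probes of *Ifnar1* did not point one way. The brightest, at base 4907 of the transcript and from 91508662 to 91508721 on chromosome 16 (mm9, the build of the array files, as for all probe positions), gave a signal of 636 on the control array and 1077 on the *Drp1*LiKO array. Its log2 ratio of 0.58, or 1.49-fold, was 4.75 times the noise between spots. The probe at base 3284 was lower, from 433 to 378, with a log2 ratio of -0.38 and noise of 0.14. Farther upstream, the probe at base 1536, whose match spans 1587 bases of the genome and so crosses an intron, went from 63.5 to 57.9, a log2 ratio of -0.32 with noise of 0.24. The last probe, designed on another transcript model of the gene, went from 302 to 400, a log2 ratio of 0.22 with noise of 0.13. *Ifnar1* thus had 2 probes above 0 and 2 below, and a statement on the gene depends on the probe chosen.

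*Ifnar2*, the chain that binds interferon more tightly, was nearly equal on both arrays at its brightest probe. This probe, at base 924, gave a signal of 2797 on the control array and 3246 on the *Drp1*LiKO array. The log2 ratio of 0.03 was within the noise of 0.091, and its sign turned in the deposited normalized values (-0.04). The probe at base 2691 went from 491 to 455, with a log2 ratio of -0.29 and noise of 0.13. Neither probe came near the threshold, so the receptor that starts the pathway had no called change on these arrays. In the RefSeq table, *Ifnar2* overlaps the predicted gene *Gm36587*, and what share of the signal belongs to each was not tested.

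*Stat2* and *Irf9*, which encode the DNA-binding complex that the receptor switches on, both had higher signals in *Drp1*LiKO cells. The brightest *Stat2* probe, at base 4330 and from 127729834 to 127729893 on chromosome 10, gave a signal of 1230 on the control array and 3565 on the *Drp1*LiKO array. The log2 ratio was 1.35 with noise of 0.12 and a Z score of 2.08, just past the threshold. Of all detected genes, 96.8% had a lower ratio. The other probe was dim, at 24.0 on the control array and 54.9 on the *Drp1*LiKO array, and its log2 ratio of 1.01 had a wider noise of 0.31 and fell to 0.23 with normexp background correction. This second probe covers 442 bases of the genome from 127719861 to 127720302, so its match crosses an intron and it reads spliced *Stat2* RNA. Its sequence, shown because it reads another part of the transcript than the bright probe, is as follows.
*Stat2* probe at base 1362: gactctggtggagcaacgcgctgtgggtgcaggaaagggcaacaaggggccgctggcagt
*Apof*, a gene for an apolipoprotein, overlaps *Stat2* in the RefSeq table, and whether it adds to these signals was not tested.

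*Irf9* was measured by a pair of bright probes. The probe at base 2483, from 56228806 to 56228865 on chromosome 14, gave a signal of 1346 on the control array and 3047 on the *Drp1*LiKO array, and that at base 1847 had 506 and 1282. The log2 ratios were 1.00 and 1.16, with noise of 0.11 and 0.13 and Z scores of 1.54 and 1.79. Both probes were thus higher by 8.68 and 9.19 times the noise between spots and both fell short of the threshold. The ratio of the brighter probe exceeded that of 94.7% of all detected genes. Of 12 ways of processing, the one reported and 11 alternatives, *Irf9* passed under 4 and *Stat2* under 10.

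**Figure D2:**
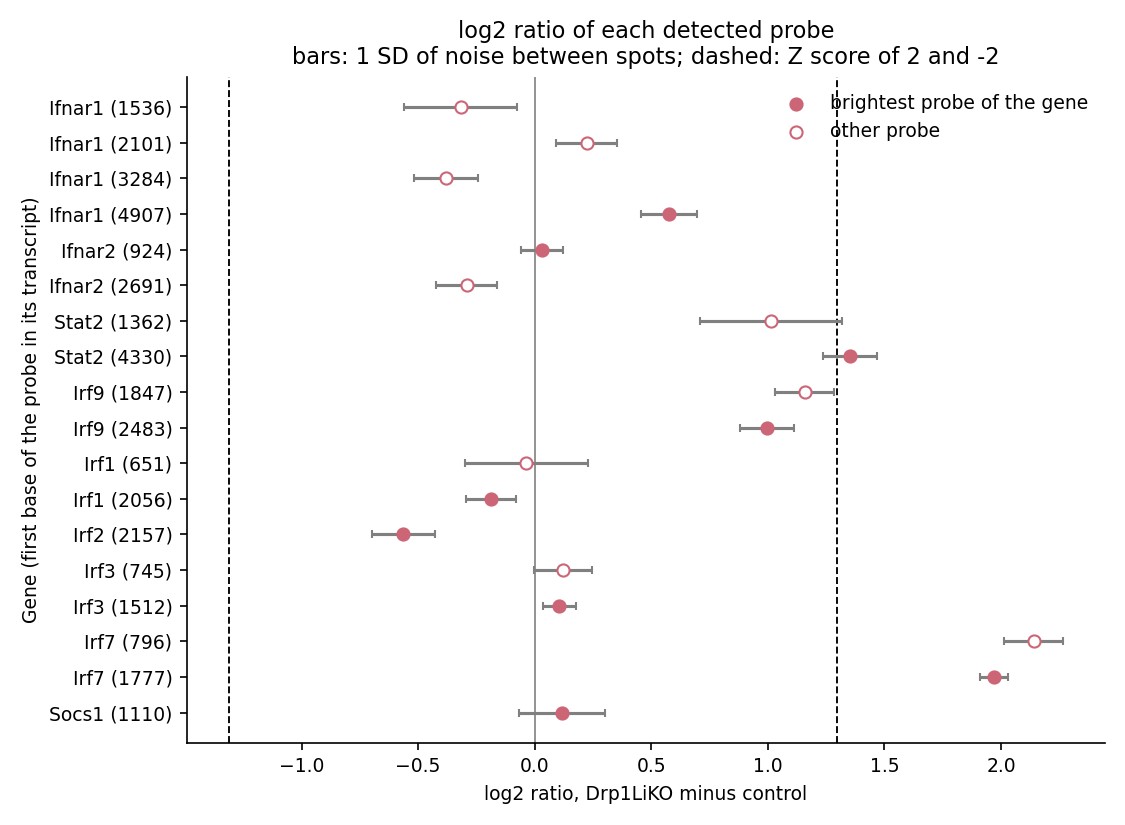
Log2 ratio (*Drp1*LiKO minus control) of each of the 18 detected probes, with filled circles for the brightest probe of a gene, open circles for the others, bars for 1 SD of the noise between spots, and dashed lines at Z scores of 2 and -2. Both *Irf7* probes and 1 *Stat2* probe lie beyond the upper line, both *Irf9* probes lie at 1.00 and 1.16, and the 4 *Ifnar1* probes fall on either side of 0.

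*Irf7*, the factor that amplifies production of type I interferons, had the largest change of the 9 genes, and it was the largest under each of the 12 ways of processing. Its brightest probe, at base 1777 and from 148449104 to 148449163 on the minus strand of chromosome 7, gave a signal of 9848 on the control array and 43780 on the *Drp1*LiKO array. The log2 ratio was 1.97, or 3.92-fold, with noise of 0.060 and a Z score of 3.03. No spot of the 9 genes was saturated. Among all detected genes, *Irf7* ranked 310 from the highest ratio, so that 98.5% lay below it. The probe at base 796 was dimmer, with a signal of 480 on the control array and 2400.4 on the *Drp1*LiKO array, and gave a log2 ratio of 2.14, or 4.41-fold, with noise of 0.13 and a Z score of 3.29. Its match crosses an intron, over 351 bases from 148450664 to 148451014, so it reads spliced RNA. Probes from separate parts of the *Irf7* transcript therefore differed by 0.17 on the log2 scale, which is little beside their ratios. The sequence of the probe that crosses the intron is shown because it holds the larger of these ratios.
*Irf7* probe at base 796: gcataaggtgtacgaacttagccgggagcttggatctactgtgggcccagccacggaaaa
The study listed *Irf7* among immune genes raised in this same experiment, so its height here is not independent evidence.

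*Irf3*, whose protein is activated by the same upstream signals as that of *Irf7* but is not known to be induced, was bright and nearly equal on both arrays. The probe at base 1512 gave a signal of 5679 on the control array and 6935 on the *Drp1*LiKO array, a log2 ratio of 0.11 with noise of 0.069. The probe at base 745 had 663 and 817, a log2 ratio of 0.12 with noise of 0.12. These probes gave almost the same ratio, both within 2 SDs of the noise from 0. *Irf7* and *Irf3* thus differed by 1.86 in log2 ratio on the same arrays.

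*Irf1* and *Irf2*, an activator and a repressor of overlapping sets of genes, were the only ones of the 9 with a brightest probe below 0. The bright *Irf1* probe, at base 2056, gave a signal of 2021 on the control array and 2015 on the *Drp1*LiKO array. After scaling, its log2 ratio was -0.19 with noise of 0.11. A dim *Irf1* probe at base 651, which crosses an intron over 146 bases, had 47.9 and 53.1, a log2 ratio of -0.04 with noise of 0.26, and -0.88 in the deposited normalized values. By the scanner signals, neither *Irf1* probe lay beyond 2 SDs of the noise. *Irf2* gave a signal of 409 on the control array and 314 on the *Drp1*LiKO array at base 2157, a log2 ratio of -0.56, or 1.48-fold lower, with noise of 0.14 and a Z score of -0.85. The ratio of *Irf2* was 4.13 times the noise and remained below 0 under all 12 ways of processing, and 10.8% of all detected genes lay below it. A second *Irf2* probe, designed on a cDNA clone, was not well above background on either array, at 13.4 and 10.9, and gave no ratio. *Irf2* overlaps the predicted genes *Gm31172* and *Gm39170* in the RefSeq table.

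*Socs1*, an inhibitor of Janus kinases that interferons induce, had a single probe, at base 1110 and from 10783951 to 10784010 on the minus strand of chromosome 16. Its signal was 86.4 on the control array and 106 on the *Drp1*LiKO array, a log2 ratio of 0.12 with noise of 0.19 and a sign that turned with normexp background correction (-0.02). At this signal a difference as small as this was not detectable. *Socs1* was not called, and 67.2% of all detected genes had a lower ratio.

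**Figure D3:**
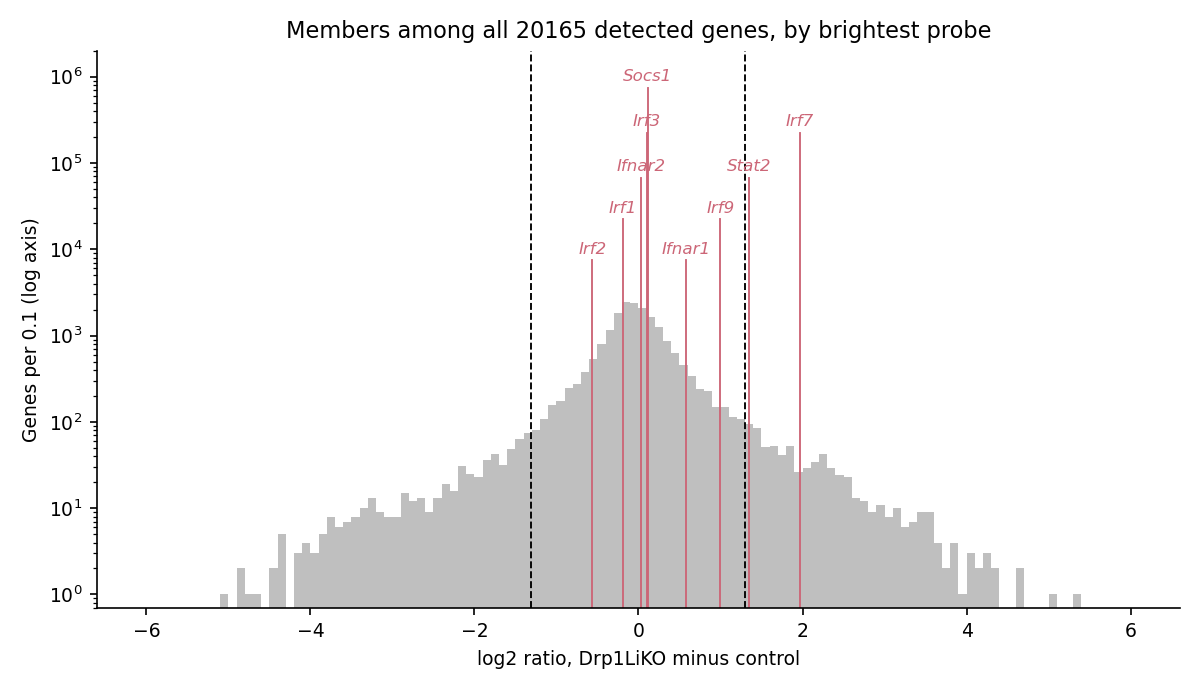
Number of genes (log axis) in steps of 0.1 of the log2 ratio (*Drp1*LiKO minus control) over all 20165 detected genes, in grey, with a red line for each of the 9 genes by its brightest probe and dashed lines at Z scores of 2 and -2. *Irf7*, at 1.97, and *Stat2*, at 1.35, lie beyond the upper line, and the other 7 lie between -0.56 and 1.00.

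The rest of the pathway was read from lists of 34 other genes, of which 33 were on the array and 27 were detected. Of these, 2 were higher, 0 were lower, and 11 had a log2 ratio above 0, with a median of -0.04. The called genes were *Ifnb1*, a ligand, and *Usp18*, an inhibitor of the receptor. *Ifnb1*, the gene of interferon beta, gave a signal of 6.27 in control cells, which was not well above background, and 93.3 in *Drp1*LiKO cells. By the reported processing of the scanner signals it was thus at least 4.51-fold higher, a log2 ratio of at least 2.17. With normexp background correction the log2 ratio was only 0.90. The Z score among probes of similar signal was 1.97, short of the threshold. In the normalized values that the authors deposited, however, the same probe was lower, with a log2 ratio of -0.67, so the direction of *Ifnb1* depends on which of the deposited values is used. *Usp18*, a protease that removes ISG15 and blocks signaling at IFNAR2, rose from 1659 to 10021 in signal. Its log2 ratio after scaling was 2.41, and it passed the threshold under all 12 ways of processing.

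Of the 10 ligand genes in the list, 9 were on the array and 4 were detected. *Ifnl3* and *Ifna5* bounded the uncalled ones, with log2 ratios of 0.39 and -0.71 at signals between 25.4 and 39.8, near background. Other chains of interferon receptors were all detected and not called. *Ifnlr1*, the specific chain of the interferon lambda receptor, had the highest log2 ratio, 0.85 (149 on the control array and 304 on the *Drp1*LiKO array), and *Il10rb* the lowest, -0.15. The Janus kinases ran from -0.22 for *Jak1* to 0.43 for *Tyk2*, whose sign turned in the deposited normalized values (-0.64), and the other detected STAT genes from -0.36 for *Stat5a* to 0.36 for *Stat3*. None of these kinases and STAT genes was called.

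The other IRF genes were 4 in number, all detected, and 0 were called. *Irf8*, a factor of macrophages and dendritic cells, gave a signal of 93.8 on the control array and 251 on the *Drp1*LiKO array, a log2 ratio of 1.23. It passed the threshold under 4 of the 12 ways of processing. *Irf4*, a factor of lymphocytes and myeloid cells, was not well above background in control cells (4.17) and gave a signal of 48.7 in *Drp1*LiKO cells. By the reported processing *Irf4* was at least 2.35-fold higher. Its log2 ratio was 0.34 with normexp background correction and -2.55 in the deposited normalized values. *Irf5*, at -0.85, was the lowest of the list. Besides *Usp18*, the 8 negative regulators held no called gene, from -0.74 for *Socs2* to 0.38 for *Socs3*.

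All 11 genes in a list of known targets of the STAT-IRF9 complex were higher, with a median log2 ratio of 3.53, from at least 1.62 for *Mx1* to 5.36 for *Rsad2*. *Mx1* no longer passed with normexp background correction, at a log2 ratio of 0.46, nor by the Z score among probes of similar signal, at 1.51, and the ratio of *Rsad2* was 4.65 with normexp. *Rsad2*, an antiviral radical SAM enzyme, rose from a signal of 88.7 to 4141. *Isg15*, a ubiquitin-like modifier, rose from 1122 to 13645. *Ifit3* rose by 4.19, *Oasl2* by 4.37, *Ifit1* by 3.53, *Mx2* by 2.98, *Cmpk2* by 2.45 and *Rtp4* by 2.30 on the log2 scale. For *Oas2* and *Ifi44*, with log2 ratios of at least 3.87 and 4.68, the control signal was not well above background, and the ratios were 2.16 and 2.59 with normexp. Many of these genes are on the study's own list from this experiment (*Ifit1*, *Ifit3*, *Rsad2*, *Mx1*, *Mx2*, *Oas2* and *Oasl2*). All 11 were read from the same 2 arrays, in a list chosen with earlier results of these data known, so their direction is not independent evidence. The *Ifit*, *Oas*, *Gbp* and *Ifna* genes form families of similar sequence, so a probe of one may also read another.

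Targets linked to IRF1 and interferon gamma gave a mixed picture beside the nearly equal *Irf1*. Of 12 such genes, 3 were higher, 1 was lower and the median was 0.52. *Cxcl10*, a chemokine that STAT-IRF9 also drives, rose from 572 to 7053 in signal, with a log2 ratio of 3.44 after scaling. *Gbp3*, a guanylate-binding protein, rose by 2.62 and the chemokine *Cxcl9* by 1.44. The adhesion molecule *Icam1* fell from 3925 to 1586 in signal, with a log2 ratio of -1.49 after scaling. The calls of *Cxcl9* and *Icam1* ended with the deposited values, at Z scores of 1.98 and -1.81, and with no floor, at 1.55 and -1.71. *Nlrc5*, a regulator of MHC class I genes, had the highest ratio short of the threshold, 1.07, with a Z score of 1.65 at its brightest probe. The study, however, listed *Nlrc5* among the immune genes raised in this same experiment, so the lack of a call here differs from the study. *Psmb10*, a subunit of the immunoproteasome, had the lowest measured ratio of the uncalled genes, -0.14. *Ciita* was well above background in *Drp1*LiKO cells only, at 16.8, too near background for a fold change.

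**Figure D4:**
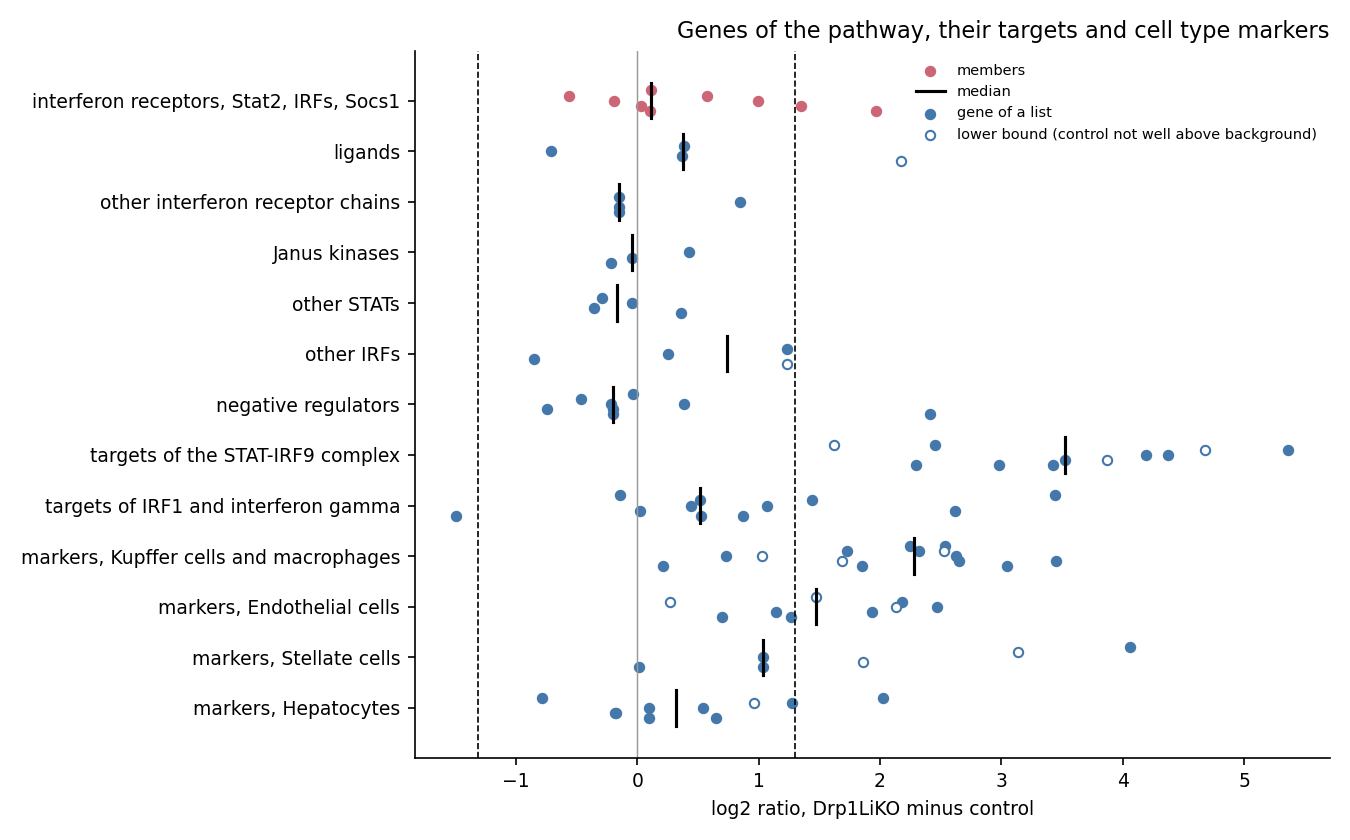
Log2 ratio (*Drp1*LiKO minus control) of each detected gene, by its brightest probe, for the 9 genes (red) and for lists of other pathway genes, targets and cell type markers (blue), with black lines for medians, open circles for lower bounds and dashed lines at Z scores of 2 and -2. All 11 targets of the STAT-IRF9 complex lie beyond the upper line, with a median of 3.53, against a median of 0.12 for the 9 genes. Bounds below 0 are not drawn, and the lists were chosen with earlier results of these data known.

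Markers of cells other than hepatocytes also differed between the arrays. Of 15 markers of Kupffer cells and macrophages, 14 were detected, all 14 had a ratio above 0 and 11 were called higher, with a median log2 ratio of 2.28. Their summed signal, before scaling as for the other sums given here, was 11437 on the control array and 30145 on the *Drp1*LiKO array. The brightest of them, *Cd14*, went from 6407 to 8419, and the Kupffer cell markers *Clec4f* and *Vsig4* were not well above background in control cells, while *Timd4* was not on either array. The markers *Adgre1*, *Marco*, *C1qa*, *C1qb*, *C1qc* and *Cd5l* are on the study's own list from this experiment. All lists were chosen with earlier results of these data known, so the direction of these markers is not independent evidence. All 9 endothelial markers were detected, 5 were called higher and the median was 1.47, with summed signals of 4136 and 8517. Most of these sums was *Egfl7*, the brightest of these markers, which went from 3773 to 6941 and was not called. *Tek*, *Tie1* and *Lyve1* were not well above background in control cells. Of 8 stellate cell markers, 7 were detected and 3 were called higher, among them *Dcn* from 203 to 3848, with sums of 21844 and 29182. Most of that sum was *Acta2*, at 21437 and 24640.2, whereas *Pdgfrb*, *Col3a1* and *Des* were not well above background in control cells and *Lrat* was not on either array. Lymphocyte and neutrophil markers were mostly not detected, with 1 of 6 for T and NK cells, 1 of 4 for B cells and 1 of 4 for neutrophils. The neutrophil marker, *Ly6g*, was called higher, from 17.5, not well above background, to 76.9, a log2 ratio of at least 1.90. Of the markers of plasmacytoid dendritic cells, which make much interferon and express *Irf7* at rest, *Siglech* had signals of 26239 and 31597 and a log2 ratio of 0.09, *Cox6a2* one of -0.19, and *Ccr9* was not detected. On the control array this *Siglech* probe was brighter than the hepatocyte marker *Hnf4a* (4631) and dimmer than *Alb*. Whether it reads *Siglech* RNA was not tested, so its ratio is not read as a measure of these cells. All 10 hepatocyte markers were detected, including *Alb* at 219613 on the control array and 266703 on the *Drp1*LiKO array, with a median of 0.32 and 1 called, *Cyp3a11*, and *Pck1* was not well above background in control cells. The ratios of *Irf7*, *Stat2* and *Irf9* therefore stand beside higher macrophage, endothelial and stellate cell markers and *Ly6g* on the same array, and the part of these cells in the ratios was not tested. A change in the number of cells of a type and a change in RNA per cell cannot be told apart in such bulk samples.

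The promoters of the 9 genes were read from RefSeq (GRCm38.p6), in windows from 250 bases before to 50 bases after a start site, and searched on both strands for the core of the interferon-stimulated response element (GAAA, any 2 bases and GAAA again) and for the gamma-activated site (TTC, any 3 bases and GAA), to which STAT dimers bind. Of all 32851 windows of this length, 3.44% held the first motif and 8.30% the second. The first was found in *Stat2*, *Irf2* and *Socs1*, 3 of the 9 genes. The second was found in *Ifnar1*, *Ifnar2*, *Irf1* and *Irf2*, 4 of the 9. Neither motif was in the windows of *Irf3*, *Irf7* or *Irf9*, which says only that these letters are not in these windows. Sequences are shown for the called genes *Stat2* and *Irf7* and for the uncalled genes *Irf2*, *Irf1* and *Socs1*, as the 250 bases before the start site in the direction of the gene, with motifs in capitals. *Irf1* has 2 windows in the table, of which the first is shown.
*Stat2* (chr10:128270248-128270497, plus strand): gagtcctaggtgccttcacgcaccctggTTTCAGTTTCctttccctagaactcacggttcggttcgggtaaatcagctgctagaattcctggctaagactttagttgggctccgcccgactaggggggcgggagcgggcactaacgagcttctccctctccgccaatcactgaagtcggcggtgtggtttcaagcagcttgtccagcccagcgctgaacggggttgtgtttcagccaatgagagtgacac
*Irf7* (chr7:141266425-141266674, minus strand): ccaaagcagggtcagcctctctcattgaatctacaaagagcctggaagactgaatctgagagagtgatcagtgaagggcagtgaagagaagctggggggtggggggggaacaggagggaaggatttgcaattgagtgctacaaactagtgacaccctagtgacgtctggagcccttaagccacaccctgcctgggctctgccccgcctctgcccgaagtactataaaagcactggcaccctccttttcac
*Irf2* (chr8:46739495-46739744, plus strand): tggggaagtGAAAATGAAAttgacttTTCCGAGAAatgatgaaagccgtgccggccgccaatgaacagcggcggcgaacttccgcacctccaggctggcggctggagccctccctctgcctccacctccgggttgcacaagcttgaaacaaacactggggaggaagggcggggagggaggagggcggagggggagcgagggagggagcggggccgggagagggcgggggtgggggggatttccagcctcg
*Irf1* (chr11:53769764-53770013, plus strand): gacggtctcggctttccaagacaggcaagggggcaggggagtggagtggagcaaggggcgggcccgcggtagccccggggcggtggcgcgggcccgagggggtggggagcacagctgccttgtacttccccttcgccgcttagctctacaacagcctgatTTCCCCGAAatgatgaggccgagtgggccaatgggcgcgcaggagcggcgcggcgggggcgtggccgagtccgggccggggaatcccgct
*Socs1* (chr16:10785537-10785786, minus strand): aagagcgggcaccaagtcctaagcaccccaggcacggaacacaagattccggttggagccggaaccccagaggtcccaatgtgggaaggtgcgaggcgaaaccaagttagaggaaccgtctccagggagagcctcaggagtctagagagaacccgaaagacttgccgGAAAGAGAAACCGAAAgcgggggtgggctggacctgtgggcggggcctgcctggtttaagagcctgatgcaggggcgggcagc
In *Stat2* the motif lies on the opposite strand and begins 222 bases before the start site. *Irf2* holds both motifs, with first bases 241 and 224 before the start, and *Socs1* holds overlapping copies of the first, at 83 and 77. The gamma-activated site of *Irf1* begins 90 bases before its start. In these windows the first motif was held by *Stat2*, at a log2 ratio of 1.35, and by *Irf2* and *Socs1*, at -0.56 and 0.12. *Irf7* and *Irf9*, at 1.97 and 1.00, held neither motif there. Whether a motif bears on the ratio of its gene was not tested. Among the targets of the STAT-IRF9 complex, 7 of 11 had a promoter in the table and 4 of those (*Ifit1*, *Ifit3*, *Isg15* and *Rsad2*) held the first motif.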

How the data were processed

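Cy3-labeled RNA of 2 samples was hybridized to 60-mer Agilent mouse arrays, both on 1 slide. The authors deposited the Feature Extraction output of each array, an intensity per spot with the background subtracted and trends corrected but no normalization between arrays. Per the labels Feature Extraction was version 9.5.1.1; the file headers name another. They also deposited a table of normalized intensities, by a method not given in the sources used here. Its control column ranked probes as the control array did (rank correlation 1.00), its *Drp1*LiKO column less closely (0.958), so it served only as an alternative.

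Control spots and outlier spots were left out, and spots of a probe averaged on the log2 scale. Arrays were scaled by their 75th percentile (signals of 313 and 356). Kept were the 30275 probes that either array showed well above background. Signals below that were set to the lowest one above it (18.2 in control, 15.0 in *Drp1*LiKO cells), so such a fold is a bound. A gene was its brightest probe, by mean scaled log2 signal. The members and lists were chosen with earlier results of these data known. Named were every member with its probes, *Dnm1l*, in each list the called genes and the highest and lowest of the rest, and the brightest and missing markers. Names come from the array design, and all 9 matched RefSeq symbols. Alternatives covered normalization, background, filters, floor, Z score and choice of probe. Protein sequences were not used here. Steps were checked on simulated data. The number of arrays limits the precision. Python 3.11.15, numpy 2.4.6, pandas 2.3.3, matplotlib 3.10.9, R 4.3.3 and limma 3.58.1 were used.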

Additional observations from a re-analysis of the deposited data

How the results depend on the processing

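Counts and ratios were recomputed under 11 alternatives. The count of higher genes among the 9 was 2, and 1 with no floor or with the median of a gene's probes, where *Irf7* alone passed. It was 3, with *Irf9*, under normexp, no filter on dim probes, the robust Z score and the Z score among probes of similar signal. The count of the 9 genes with a log2 ratio above 0 was 7, and 6 with normexp and with the deposited values. With the median of a gene's probes, *Ifnar1* (-0.05) and *Ifnar2* (-0.13) both fell below 0. Over all genes, the robust Z score gave 1722 higher and 1443 lower genes no filter 1355 and 597, and the deposited values 553 and 735, against 705 and 566. Without the filter the median ratio of all genes was -0.47, against -0.05. *Irf7* ranged from 1.90 to 2.06, *Stat2* from 1.18 to 1.48, *Irf9* from 1.00 upwards and *Ifnar1* from -0.05 (median of probes) to 1.14 (deposited values). Of the 34 other pathway genes, 2 were higher. This became 1 with the deposited values and with the Z score among probes of similar signal, and 5 with no filter and with the robust Z score. Under normexp *Irf8* joined *Ifnb1* and *Usp18*, and with no floor *Irf4* joined them. When only probes well above background on both arrays were kept, the called genes were *Irf8* and *Usp18*. Lower ones were 0, and 1 with the deposited values (*Irf4*) and with the robust Z score (*Irf5*). *Ifnb1* reversed to -0.67 with the deposited values. The cause was not tested. Low signal limits the dim probes of *Stat2*, *Irf1* and *Ifnar1* and the probe of *Socs1*, whose noise was 0.19 to 0.31. No paired analysis was possible because each genotype had 1 array.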
